A study of Mus musculus with 6 samples.

Results

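A set of 10 genes that the transcription factor NF-κB is known to induce, and that encode no cytokine, was followed in mouse macrophages on the way to becoming osteoclasts. They are Icam1, Plau, Plaur, Slfn2, Ier3, Gadd45b, Sod2, Tnfaip2, Marcksl1 and Cd83, chosen by name. All 10 were found among the 15982 genes of the authors' deposited table, in 11 entries, because Slfn2 has 2. For Slfn2 the entry with the higher mean level was kept. Bub1 is a kinase of the mitotic spindle checkpoint, and the study asks what it does in myeloid cells. Bone marrow-derived macrophages came from mice lacking Bub1 in myeloid cells (Bub1 cKO, 3 libraries) and from control mice (Ctrl, 3 libraries). Both groups spent 3 days with the macrophage growth factor M-CSF (20 ng/ml). RANKL (50 ng/ml), the cytokine that drives osteoclast formation, was added to the same dose of M-CSF for 2 further days. The sources used here do not give the driver of the deletion, the control genotype, the age of the animals or whether the libraries came from separate animals, so the p-values may measure technical spread. RNA was measured with a QuantSeq 3' kit, which reads the 3' end of each transcript.

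NF-κB is a family of dimers of Rel proteins that rest in the cytoplasm, bound by inhibitors of the IκB family. When RANKL binds its receptor RANK, or when a cell meets TNF or a bacterial product, the inhibitors are degraded, the dimers enter the nucleus and bind short κB sequences near their target genes. In osteoclast precursors this signal is needed for the cells to differentiate, and among the genes it induces are adhesion molecules, proteases, survival factors and stress enzymes, such as those followed here.

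Promoter sequences of 8 members were available from RefSeq (build GRCm38.p6), each running from 250 bases before to 50 bases after the start of the gene as RefSeq places it, and 3 of the 8 held a match to a κB motif. They are shown because κB sequences are what NF-κB binds. Capitals mark the matches, and each sequence reads 5′ to 3′ on the plus strand. The Icam1 window is chr9:21015690-21015989, that of Ier3 is chr17:35821463-35821762 and that of Sod2 is chr17:13007589-13007888.
Icam1: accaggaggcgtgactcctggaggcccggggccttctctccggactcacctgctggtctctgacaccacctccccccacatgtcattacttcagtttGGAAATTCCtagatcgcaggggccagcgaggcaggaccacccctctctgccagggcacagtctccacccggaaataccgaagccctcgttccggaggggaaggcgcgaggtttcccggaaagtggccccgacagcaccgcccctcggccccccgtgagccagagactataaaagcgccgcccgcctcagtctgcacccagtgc
Ier3: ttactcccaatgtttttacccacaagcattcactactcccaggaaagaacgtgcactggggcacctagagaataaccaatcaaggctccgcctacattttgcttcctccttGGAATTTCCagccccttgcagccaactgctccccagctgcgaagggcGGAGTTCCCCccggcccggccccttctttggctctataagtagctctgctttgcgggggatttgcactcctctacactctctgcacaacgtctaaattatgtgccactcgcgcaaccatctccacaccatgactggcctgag
Sod2: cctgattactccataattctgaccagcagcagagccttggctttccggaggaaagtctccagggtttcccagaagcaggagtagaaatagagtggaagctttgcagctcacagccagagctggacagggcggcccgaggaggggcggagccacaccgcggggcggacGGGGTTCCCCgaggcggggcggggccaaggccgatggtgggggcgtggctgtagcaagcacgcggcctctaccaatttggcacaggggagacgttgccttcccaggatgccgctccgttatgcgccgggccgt

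Motifs were searched on both strands. The 10-letter κB consensus matched in 2 of the 8 promoters, GGGGTTCCCC of Sod2 and GGAGTTCCCC of Ier3, and in 4.51% of all 32851 promoters. The 9-letter form GGAANTTCC, which reads the same on both strands and was added after the promoters had been seen, matched in Icam1 (GGAAATTCC) and in Ier3 (GGAATTTCC), and in 0.928% of all promoters. Either form was present in 5.15% of all promoters. In Ier3 both forms occur without overlapping each other, 139 and 92 bases before the start of the gene at their first base. The match of Icam1 begins 153 bases and that of Sod2 83 bases before the start that RefSeq gives. In GENCODE M21, used for positions below, Sod2 starts at 13006846. By that annotation its match, at 13007756 to 13007765, lies inside the gene. Plaur, Slfn2, Gadd45b, Tnfaip2 and Marcksl1 had no match to either form in this window. Plau and Cd83 had no sequence in the promoter table. A match describes the letters and shows no binding.

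No member passed the authors' test. Among the 10 members, 0 had an adjusted p under 0.05, a threshold that 0.181% of all genes passed (29 of 15982), and the lowest adjusted p was 0.759, that of Icam1. At an adjusted p under 0.1 the count was also 0, against 0.275% of all genes. Before adjustment 4 members had a p under 0.05, against 4.81% of all genes and 7.39% of the 7159 genes with a mean level of at least 5 TPM. Icam1, Slfn2 and Tnfaip2 had the lower value in Bub1 cKO, and Plau the higher one. Icam1, Slfn2 and Plau had already been singled out in these data for small p-values, so this share says nothing about NF-κB targets as a class. Of the 10 statistics 5 were positive, meaning higher in Bub1 cKO, and 5 negative, while 49.9% of all genes were positive. The median log2 change of the members was -0.05, against -0.01 over all genes.

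The authors' deposited table gives each gene 1 expression level for Bub1 cKO and 1 for Ctrl, so values per library, SDs and the overlap of the groups cannot be given. The file names no unit for these values, which are called TPM here because they sum to 999954 in Bub1 cKO and 999891 in Ctrl, as TPM would, though CPM would sum alike. A pair of log2 changes of Bub1 cKO over Ctrl is given. The first, called the log2 change, is that of the 2 group values after adding 1. The second, called the test's log2 change, is the authors' statistic times its standard error, and its 95% interval was computed from that standard error. The depth of the libraries is unknown. Bub1 itself stood at 5.32 TPM in Bub1 cKO and 6.73 TPM in Ctrl in the authors' deposited table (adjusted p = 0.985). The sources used here do not give the deleted part of the gene, so 3' reads outside it would still be counted and this value does not check the labels.

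**Figure D1:**
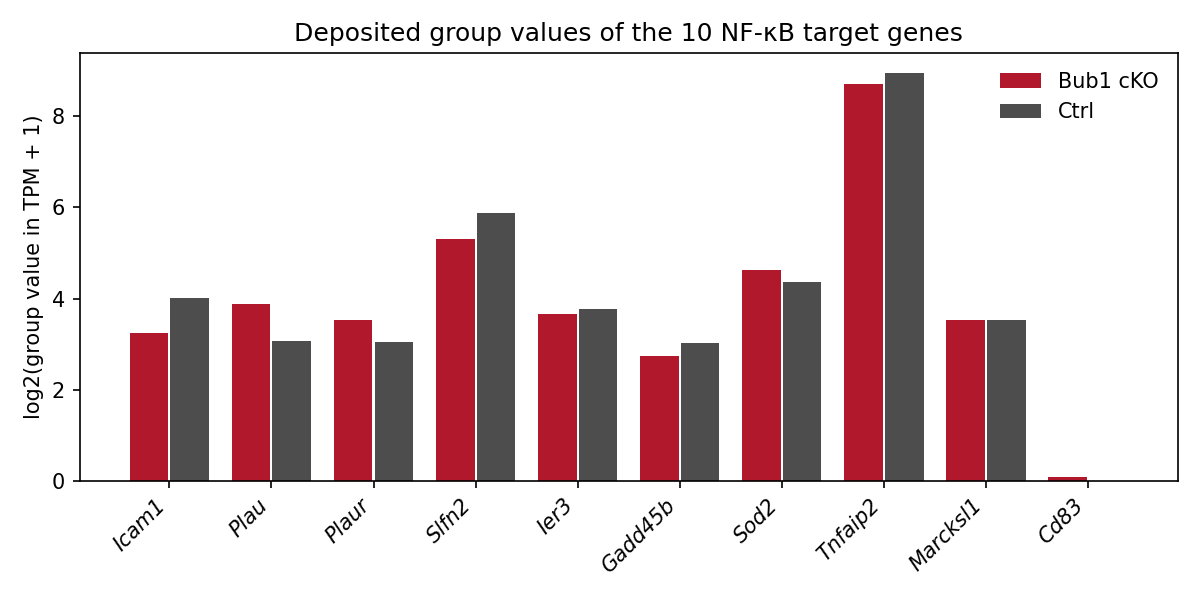
Group values of the 10 members in the authors' deposited table, as log2(TPM + 1), with 1 bar for Bub1 cKO and 1 for Ctrl and no error bars because there is 1 value per group. Tnfaip2 stood at 419 TPM in Bub1 cKO and 492 TPM in Ctrl, 7 members lay between 5 and 25 TPM in both groups, and Cd83 was listed at 0.053 TPM in Bub1 cKO and 0 TPM in Ctrl.

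The members' levels differed widely on the TPM scale. Tnfaip2 had a mean of 455 TPM, above 97.9% of all genes, and Slfn2 a mean of 48.4 TPM, above 88.5%, in the authors' deposited table. Sod2, Ier3, Icam1, Plau, Marcksl1, Plaur and Gadd45b followed in this order, with means of 21.7 TPM for Sod2 down to 6.41 TPM for Gadd45b in the authors' deposited table. These 7 had values between 5 and 25 TPM in both genotypes. Cd83 was at the bottom with a mean of 0.027 TPM in the authors' deposited table, above only 2.49% of genes. No spread between libraries is available, so whether neighbours in this order differ was not tested, and if the unit is CPM the order would also depend on how reads were counted.

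Adhesion and proteolysis at the cell surface came first. Icam1 encodes an adhesion molecule that binds the β2 integrins of leukocytes. It had 8.49 TPM in Bub1 cKO and 15.1 TPM in Ctrl in the authors' deposited table, a ratio of 0.561. The log2 change was -0.77. The test's log2 change was -0.86 (standard error 0.345), with a 95% interval of -1.54 to -0.19, and the authors' deposited table gives p = 0.013 before adjustment and adjusted p = 0.759. Icam1 was the member with the largest statistic in size and ranked 262nd of 15982 genes by p. Its 3' end lies under an antisense gene, Gm47079, that overlaps it by 511 bases, and the sources used here do not say whether the counting used strand. Reads of the 2 genes may therefore not have been told apart, and Gm47079 has no row of its own in the table.

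Plau encodes urokinase, the protease that turns plasminogen into plasmin. Its values were 13.8 TPM in Bub1 cKO and 7.39 TPM in Ctrl in the authors' deposited table, a ratio of 1.86 and the largest ratio among the members with a value in both groups. Its log2 change was 0.82, and the authors' deposited table gives an unadjusted p of 0.029 (adjusted p = 0.917). The test's log2 change was 0.91 (standard error 0.416), with a 95% interval of 0.09 to 1.72. Plaur encodes the receptor that holds urokinase at the cell surface. It stood at 10.5 TPM in Bub1 cKO and 7.20 TPM in Ctrl in the authors' deposited table, a ratio of 1.45. Here the 2 log2 changes were apart, 0.48 for the group values and 0.15 for the test (95% interval -0.87 to 1.16, adjusted p = 0.985 in the authors' deposited table). Both the protease and its receptor thus had the higher value in Bub1 cKO, and neither passed the test.

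Growth, survival and stress genes gave no common direction. Slfn2, a Schlafen gene that keeps T cells and monocytes of mice in a resting state, had 38.7 TPM in Bub1 cKO and 58.1 TPM in Ctrl in the authors' deposited table, a ratio of 0.666. Both of its log2 changes were -0.57, with a 95% interval of -1.03 to -0.12 (adjusted p = 0.767 in the authors' deposited table). A second entry under the symbol Slfn2, with an ID that is not in the annotation used here, was listed at 0.295 TPM in Bub1 cKO and 0.348 TPM in Ctrl in the authors' deposited table. An antisense gene, Gm20234, overlaps Slfn2 by 4927 bases and covers its 3' end, with the same limit as for Icam1.

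Sod2, the superoxide dismutase of mitochondria, stood at 23.8 TPM in Bub1 cKO and 19.6 TPM in Ctrl in the authors' deposited table. Its test's log2 change was 0.29 (95% interval -0.13 to 0.71, adjusted p = 0.985 in the authors' deposited table). Ier3, an immediate early gene that modulates apoptosis, was at 11.5 TPM in Bub1 cKO and 12.6 TPM in Ctrl in the authors' deposited table. For Ier3 the interval of the test's log2 change ran from -1.15 to 0.94, around an estimate of -0.10. Gadd45b, a stress protein that acts on MAP kinase signalling, had 5.66 TPM in Bub1 cKO and 7.16 TPM in Ctrl in the authors' deposited table. Its interval was wider, from -2.11 to 1.24 around -0.43. A log2 change of 1 in either direction lay outside the interval of Sod2, while a log2 change of -1 lay inside those of Ier3 and Gadd45b and could have been missed.

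Among genes of the membrane and cytoskeleton, Tnfaip2 was the most abundant member. It encodes a protein that, in cells in culture, works with the exocyst in forming membrane nanotubes. Its values were 419 TPM in Bub1 cKO and 492 TPM in Ctrl in the authors' deposited table, a ratio of 0.851. The log2 change was -0.23, the test's log2 change -0.33 (95% interval -0.65 to -0.01), and the unadjusted p 0.042 in the authors' deposited table. With a standard error of 0.163 it was also the most precisely measured member. The antisense gene Gm40578 overlaps Tnfaip2 by 4614 bases and covers its 3' end. Marcksl1, a relative of the actin-binding protein MARCKS, had 10.6 TPM in Bub1 cKO and 10.5 TPM in Ctrl in the authors' deposited table, the closest pair of values among the members by ratio (1.01). Its test's log2 change was 0.03, with an interval of -0.86 to 0.92 that holds changes of up to 0.86 downwards, so the 2 genotypes are not shown to be alike.

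Cd83, a surface protein of mature dendritic cells and activated B cells that stabilizes MHC class II, was listed at 0.053 TPM in Bub1 cKO and at 0 TPM in Ctrl in the authors' deposited table. Its interval, from -6.997 to 8.996 on the log2 scale, excludes almost no change. The standard error of 4.08 is the largest in the authors' deposited table, and 450 genes share both this error and the statistic of 0.245, so these values are not particular to Cd83.

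**Figure D2:**
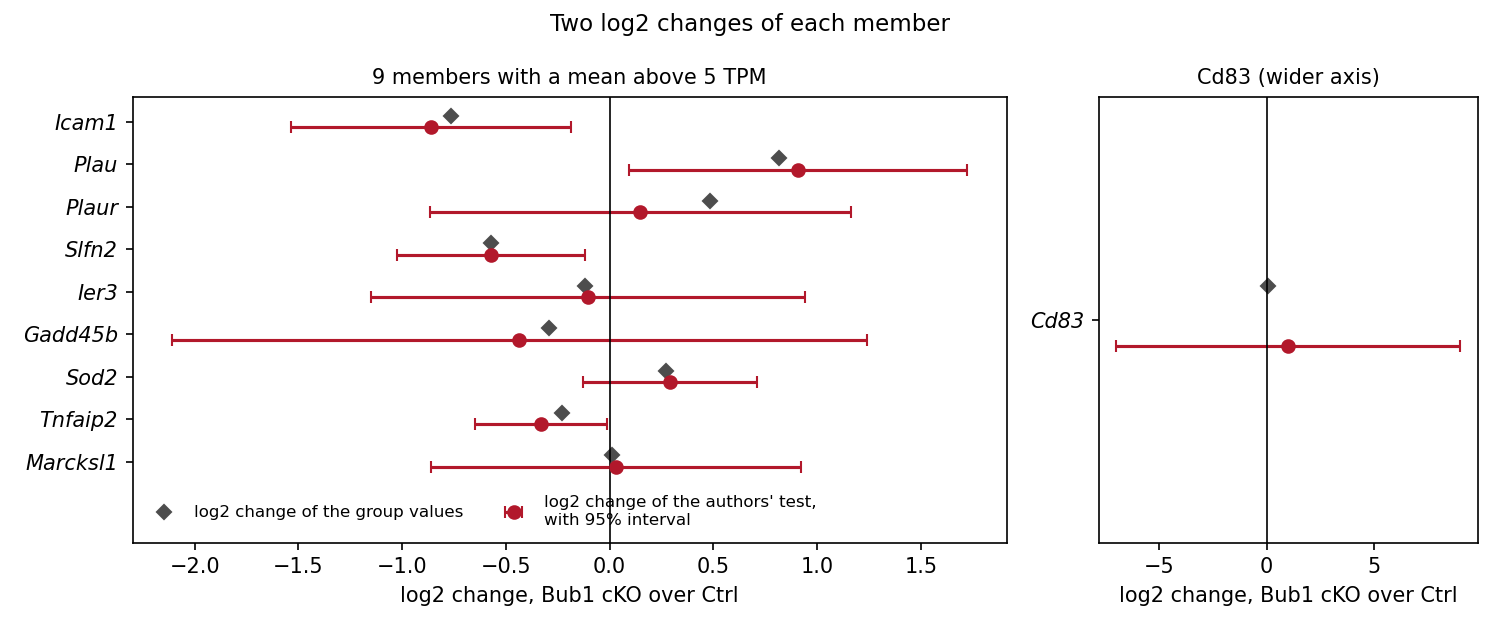
Log2 changes of Bub1 cKO over Ctrl. Diamonds are the log2 change of the group values, and points with bars are the log2 change of the authors' test with its 95% interval; Cd83 has its own, wider axis. The intervals of Icam1, Slfn2, Tnfaip2 and Plau exclude 0 before any adjustment for the number of genes, and those of the other 6 members include it.

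Both log2 changes had the same sign in 10 of 10 members, while the signs were opposite in 9.50% of all genes (1519). What the test could call was set by its standard error. The smallest statistic among the 29 called genes was 3.917 in size in the authors' deposited table, and 3.917 standard errors amount to a log2 change of 0.64 for Tnfaip2, a ratio of 1.56. For Sod2 and Slfn2 this was 0.83 and 0.91, for Icam1 1.35, for Plau 1.63, for Marcksl1 1.78, for Plaur 2.03, for Ier3 2.09 and for Gadd45b 3.35. The members at about 10 TPM would thus have needed ratios of 2.55 (Icam1) to 4.26 (Ier3) to be called. The standard errors were also set beside the median of genes whose mean lies within 0.25 on the log2 scale. Gadd45b was measured less precisely than those genes, with 0.854 against 0.521, and Sod2 more precisely, with 0.213 against 0.347, in the authors' deposited table. Icam1 had 0.345 against 0.438, Slfn2 0.232 against 0.291 and Plaur 0.517 against 0.468 in the authors' deposited table.

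**Figure D3:**
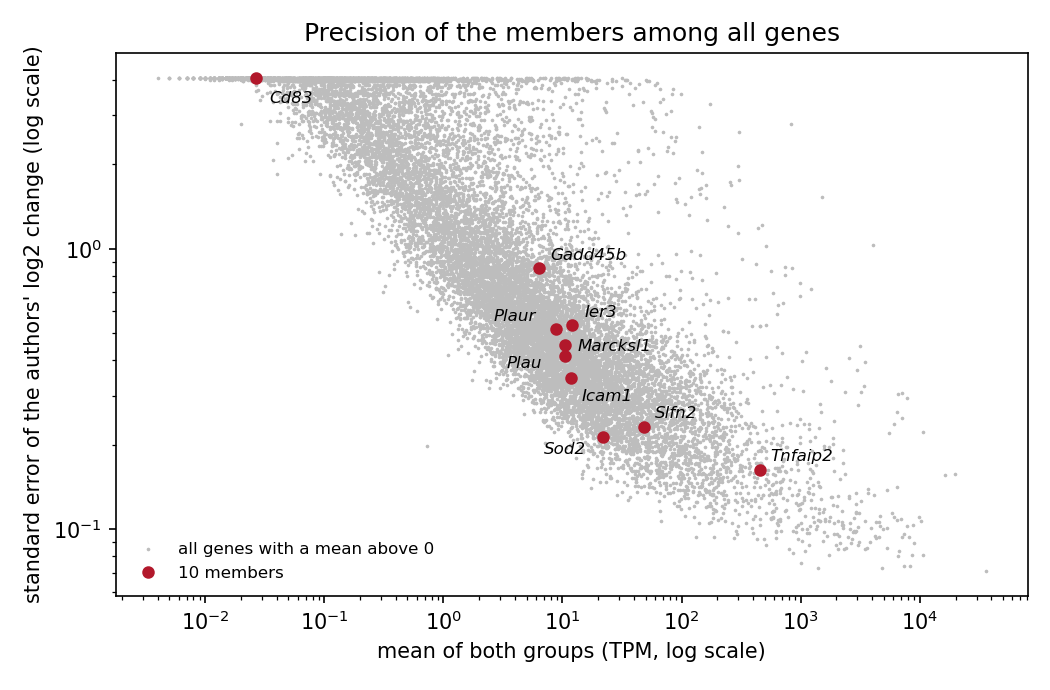
Standard error of the authors' log2 change against the mean of both groups in TPM, both on log scales, for all genes with a mean above 0 (grey) and the 10 members (red). The error runs from 0.163 for Tnfaip2 at 455 TPM to 4.08 for Cd83 at 0.027 TPM.

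Genes that work beside the members were read from 11 lists, chosen with earlier results of these data known. Of their 121 distinct genes in the table, 0 passed the adjusted p of 0.05. With p taken before adjustment, 9 had a positive and 6 a negative statistic at the same threshold, where 2.35% and 2.46% of all genes had. The 9 include Itgax, whose TPM values run the other way. The list of genes that feed back on NF-κB or encode Rel proteins had 7 positive and 9 negative statistics of 16, with a median log2 change of -0.02, beside -0.01 over all genes. Cyld, a deubiquitinase that restrains NF-κB, had the smallest p of this list, at 10.2 TPM in Bub1 cKO and 18.8 TPM in Ctrl in the authors' deposited table (adjusted p = 0.277). Relb, the Rel protein of the non-canonical pathway, stood at 4.43 TPM in Bub1 cKO and 8.15 TPM in Ctrl (adjusted p = 0.985) in the authors' deposited table. For the ubiquitin ligase gene Birc3, at 18.6 TPM in Bub1 cKO and 17.8 TPM in Ctrl in the authors' deposited table, the statistic of -1.82 had the opposite sign to the values.

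A further 39 NF-κB targets outside the cytokines had 23 positive and 16 negative statistics and a median log2 change of 0.04. At an unadjusted p under 0.05, 5 of them had a positive and 0 a negative statistic, where 2.35% and 2.46% of all genes had. Among the members the counts were 1 and 3, but Icam1, Slfn2 and Plau had been singled out for small p-values. The 2 sets of counts therefore cannot be compared, and the difference was not tested. Cd44, the hyaluronan receptor, was at 72.5 TPM in Bub1 cKO and 56.6 TPM in Ctrl (adjusted p = 0.754) in the authors' deposited table. Bcl2l1, which protects from apoptosis, had 7.50 TPM in Bub1 cKO and 3.23 TPM in Ctrl (adjusted p = 0.861), and Nfkbid, a nuclear IκB protein, 9.04 and 4.08 TPM in the same order (adjusted p = 0.887) in the authors' deposited table.

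Around Icam1, 8 of 10 listed relatives, integrin partners and anchors had a row, with 2 positive and 6 negative statistics and a median log2 change of -0.26. Itgam, the αM chain of a β2 integrin that binds Icam1, was at 27.1 TPM in Bub1 cKO and 36.3 TPM in Ctrl (unadjusted p = 0.034, adjusted p = 0.955) in the authors' deposited table. Msn, which ties adhesion molecules to actin, had 147.9 TPM in Bub1 cKO and 131 TPM in Ctrl (adjusted p = 0.985) in the authors' deposited table. For Itgax, the αX chain, the authors' deposited table holds 1.69 TPM in Bub1 cKO and 5.34 TPM in Ctrl beside a statistic of 2.35 with the opposite sign, so no direction is given for it.

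Around Plau and Plaur, 7 of 12 genes of the plasminogen system had a row, with 1 positive and 6 negative statistics and a median log2 change of -0.07. Plat, Plg, Serpinb2, Serpinf2 and Vtn had none. Lrp1, an endocytic receptor that clears urokinase with its inhibitor, was at 15.8 TPM in Bub1 cKO and 17.1 TPM in Ctrl (unadjusted p = 0.045, adjusted p = 0.985) in the authors' deposited table. The plasminogen receptor gene Plgrkt had 16.3 TPM in Bub1 cKO and 27.0 TPM in Ctrl (adjusted p = 0.985), and Serpine2, an inhibitor of urokinase, 5.90 and 4.34 TPM in that order (adjusted p = 0.985), in the authors' deposited table.

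Of the Schlafen family besides Slfn2, 6 of 7 genes had a row, and 0 reached an unadjusted p under 0.05. Slfn8, at 3.44 TPM in Bub1 cKO and 5.79 TPM in Ctrl, had the smallest p (adjusted p = 0.985) in the authors' deposited table. Slfn9 stood at 5.53 TPM in Bub1 cKO and 4.77 TPM in Ctrl, and Slfn5 at 9.97 and 9.26 TPM in that order, in the authors' deposited table.

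All 13 genes listed beside Sod2 around the handling of superoxide and peroxides had a row, with 7 positive and 6 negative statistics. Gclm, a subunit of the enzyme that starts glutathione synthesis, came closest to the threshold of all genes on the 11 lists. It stood at 223 TPM in Bub1 cKO and 192 TPM in Ctrl in the authors' deposited table (adjusted p = 0.062). The log2 change of these Gclm values was 0.21. The test's log2 change was larger, 0.58, and its 95% interval of 0.28 to 0.87 lies above that of the values. The adjusted p of Gclm therefore belongs to a larger change than its TPM values show. Gpx1, a glutathione peroxidase, was at 428 TPM in Bub1 cKO and 605 TPM in Ctrl (adjusted p = 0.284), and Hmox1, the heme oxygenase, at 38.3 and 23.6 TPM in that order (adjusted p = 0.841), in the authors' deposited table.

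The list of immediate early genes beside Ier3, which also holds Ier3ip1, had 3 positive and 6 negative statistics of 9. Its median log2 change was nevertheless 0.04, and only 6 of the 9 had a mean of at least 1 TPM. Of these 9 genes 0 reached an unadjusted p under 0.05. Atf3, a stress-induced transcription factor, stood at 27.5 TPM in Bub1 cKO and 33.4 TPM in Ctrl, Jun at 21.9 and 19.0 TPM in that order, and Egr1, whose level was low, at 0.625 and 0.986 TPM in that order, in the authors' deposited table. Beside Gadd45b, 6 of 6 relatives and partners had a row, and Cdk1, the mitotic kinase that Gadd45 proteins can inhibit, was at 85.1 TPM in Bub1 cKO and 115 TPM in Ctrl (unadjusted p = 0.033, adjusted p = 0.946) in the authors' deposited table. Gadd45a had 3.54 TPM in Bub1 cKO and 1.38 TPM in Ctrl, against the order of the Gadd45b values, in the authors' deposited table (adjusted p = 0.985). Pcna, the replication clamp, stood at 128 TPM in Bub1 cKO and 137 TPM in Ctrl in the authors' deposited table.

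Marcks, the relative of Marcksl1, stood at 11.3 TPM in Bub1 cKO and 16.3 TPM in Ctrl (unadjusted p = 0.045, adjusted p = 0.985) in the authors' deposited table. The exocyst genes and their Ral GTPases, partners of Tnfaip2, had 6 positive and 5 negative statistics of 11, with 0 at an unadjusted p under 0.05. Rala, with the smallest p among them, was at 74.7 TPM in Bub1 cKO and 85.6 TPM in Ctrl in the authors' deposited table (adjusted p = 0.985). Ralb had 25.7 TPM in Bub1 cKO and 25.2 TPM in Ctrl, and the exocyst subunit gene Exoc6 2.85 and 3.89 TPM in that order, in the authors' deposited table. Of 8 genes of antigen presentation beside Cd83, 4 were positive and 4 negative, again with 0 at an unadjusted p under 0.05. Ciita, the transactivator of the MHC class II genes, had the smallest p of this list and stood at 0.345 TPM in Bub1 cKO and 1.296 TPM in Ctrl (unadjusted p = 0.051, adjusted p = 0.985) in the authors' deposited table. Its targets had the opposite order: H2-Eb1 and H2-Ab1, chains of MHC class II, had 28.8 and 44.7 TPM in Bub1 cKO, against 18.0 and 28.1 TPM in Ctrl, in the authors' deposited table (adjusted p = 0.985 for both).

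**Figure D4:**
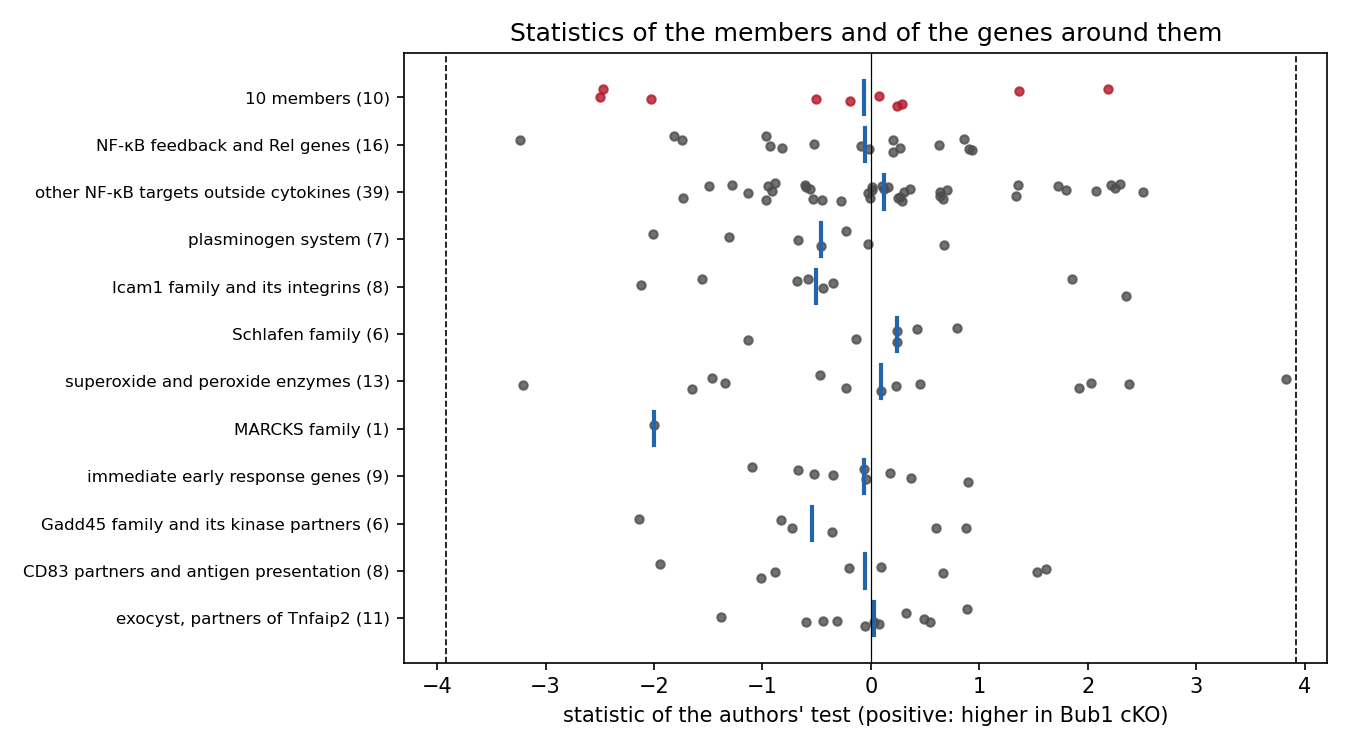
Statistic of the authors' test for the members (red) and the genes of 11 lists around them (grey), with the number of genes in brackets and a blue line at each median; vertical scatter is only for legibility. Dashed lines mark 3.917, the smallest size among called genes, and no point lies beyond them.

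Markers of the labelled cells were present. All 8 macrophage and 9 osteoclast markers had a mean of at least 1 TPM. Among the macrophage markers 6 statistics were negative and 2 positive. Their summed level was 1234 TPM in Bub1 cKO and 2621 TPM in Ctrl in the authors' deposited table. Lyz2 alone made up 762 and 2141 TPM of these sums in that order, so they do not describe the list as a whole. Lyz2, the lysozyme gene of macrophages, was the only macrophage marker to pass the test (log2 change -1.49, adjusted p = 0.00033 in the authors' deposited table). As the driver of the deletion is not given, whether the Lyz2 locus itself was altered in these mice is unknown. Before adjustment 3 macrophage markers were lower in Bub1 cKO at a p under 0.05 (Lyz2, Csf1r and Itgam) and 1 was higher, Cd68, at 306 TPM in Bub1 cKO and 260 TPM in Ctrl in the authors' deposited table. Among the osteoclast markers 7 statistics were positive and 2 negative, 0 passed the adjusted threshold, and 4 were higher and 0 lower at a p under 0.05 before adjustment. Ctsk, the collagen-degrading protease of osteoclasts, is among these 4, at 696 TPM in Bub1 cKO and 537 TPM in Ctrl in the authors' deposited table (adjusted p = 0.642). Nfatc1 had the smallest p of these 4, at 73.3 and 48.7 TPM in that order in the authors' deposited table (adjusted p = 0.094). The 2 negative statistics were those of Mmp9, at 657 and 688 TPM, and Oscar, at 11.9 and 12.5 TPM, in that order in the authors' deposited table. Most markers of neutrophils and erythroid cells had a positive statistic, and Cxcr2, a chemokine receptor of neutrophils, and the beta-globin genes Hbb-bs and Hbb-bt passed the test (adjusted p = 0.036, 0.00017 and 0.025 in the authors' deposited table). Of 12 neutrophil markers 11 had a row, 11 had a positive statistic, and their summed level was 241 TPM in Bub1 cKO and 102 TPM in Ctrl in the authors' deposited table. S100a8 and S100a9 made up most of both sums, and 6 of the 11 had a mean of at least 1 TPM. For Ltf the values run against its statistic of 0.22, with 6.74 TPM in Bub1 cKO and 12.3 TPM in Ctrl in the authors' deposited table. The sums and signs therefore do not show a rise in every marker of the list. Ly6g had no row, and 3 of the 11, Elane, Camp and Retnlg, were at 0 in Ctrl. The 7 of 8 erythroid markers with a row summed to 359 TPM in Bub1 cKO and 19.9 TPM in Ctrl in the authors' deposited table, with 6 positive statistics and 2, Alas2 and Slc4a1, at 0 in Ctrl. The globin genes Hba-a1, Hba-a2, Hbb-bs and Hbb-bt made up most of both sums. Ermap went the other way, at 0.069 TPM in Bub1 cKO and 0.273 TPM in Ctrl in the authors' deposited table. Neutrophils and monocytes can also express Icam1, Plaur, Sod2 and Slfn2, and the part of such cells, or of the macrophage and osteoclast markers' differences, in the members' values was not tested. In bulk RNA fewer cells of a type and less RNA per cell cannot be told apart. Lymphocyte markers summed to 0.495 TPM in Bub1 cKO and 0.577 TPM in Ctrl, and dendritic cell markers to 3.02 and 4.22 TPM in that order, in the authors' deposited table. Of the endothelial and stromal list, whose sums were 164 TPM in Bub1 cKO and 243 TPM in Ctrl, Pecam1, which macrophages also express, made up 161 and 240 TPM in the authors' deposited table.

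The members lie on 9 chromosomes, with Sod2 and Ier3 both on chromosome 17, and none shares the chromosome of Bub1, which is chromosome 2. In GENCODE M21 (GRCm38) Icam1 spans 21015985 to 21028817 on chromosome 9, Plau 20836660 to 20843385 on chromosome 14, Slfn2 83065112 to 83070678 on chromosome 11 and Tnfaip2 111442469 to 111455018 on chromosome 12, all on the plus strand and all protein-coding. The sources used here do not give the build the authors used. The AU-rich pentamer ATTTA, a letter string found in many short-lived mRNAs, was counted in the longest annotated 3' UTR of each member, an addition made after the values were seen. It occurred in 8 of 10 members and in 72.8% of 13652 genes of the table with a 3' UTR of at least 100 bases. Ier3 had 5 in 616 bases (8.12 per kilobase, above 98.8% of those genes), Icam1 4 in 874 bases (4.58 per kilobase) and Plaur 2 in 499 bases (4.01 per kilobase), while Slfn2 and Gadd45b had 0. The median of the members was 1.76 per kilobase against 1.41 for all those genes.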

How the data were processed

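RNA was measured in 6 libraries, 3 of Bub1 cKO and 3 of Ctrl, and QuantSeq 3' libraries took 25 ng of RNA each, per the labels' protocols. The only data used are 1 table, the authors' comparison of Bub1 cKO with Ctrl, which per the file headers comes from RaNA-seq, a web service. The sources used here do not give the aligner, build, annotation or test. Its expression values, read as TPM, were deposited as 1 value per gene and genotype. The deposited log2 change equals log2((Bub1 cKO + 1)/(Ctrl + 1)) within 0.002 in 15982 of 15982 genes, so it understates changes at low values. Statistic and standard error are scores of the authors' test, and the deposited p-value is the 2-sided normal tail of the statistic except in 8 genes where it is set to 1.

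The tests are the authors'. A gene was called at their adjusted p under 0.05, whatever its fold. No SD and no interval from single libraries can be given, and depth is unknown. For alternatives, p was adjusted again by the Benjamini-Hochberg step, which was tested on simulated data. A fit on values per library, planned for the case that such values were given, was not made. Members and gene lists were chosen with earlier results of these data known. Named are the 10 members and, of each list, up to 3 genes with the smallest p. Other genes, namely the named markers of osteoclasts, Cd68 and the markers of other cells, were chosen after their values were seen. Positions come from GENCODE M21, matched by gene ID (15910 of 15982 without the version number). Python 3.11.15, pandas 2.3.3, SciPy 1.17.1 and matplotlib 3.10.9 were used.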

Additional observations from a re-analysis of the deposited data

How the results depend on the processing

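No paired analysis was possible because the table holds 1 value per genotype, so the replicate numbers could not be used. For the same reason leaving out a replicate and the fit with DESeq2 or edgeR were not run. The count of members past an adjusted p of 0.05 stayed at 0 with p adjusted again over the 10881 genes whose mean was 1 TPM or more (lowest adjusted p 0.568), over the 7159 genes at 5 TPM or more (0.457), and with a threshold of 0.1. With an unadjusted p under 0.05, an alternative chosen after seeing the data, it was 4. The number of positive members was 5 by either log2 change. The log2 changes of the 10 members kept their sign in 30 of 30 alternatives, which were pseudocounts of 5 and 0.1 and the test's log2 change. A pseudocount cannot change the sign, so only the test's log2 change could have reversed it. That one had the same sign in 10 of 10 members. With a pseudocount of 5 that of Icam1 was -0.58 and that of Plau 0.60. The median over the members lay between -0.06 and -0.04. The log2 change of Cd83, the member with the lowest level, depended on the pseudocount and was 0.02 with 5 and 0.61 with 0.1. The depth of the libraries is unknown.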
